A study of Homo sapiens with 6 samples.

Results

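Aminoacyl-tRNA synthetases join each amino acid to its transfer RNA, the step that ties the genetic code to protein synthesis. The enzymes described here were given by a list of 35 gene symbols, 19 for enzymes of the cytosol and 16 for enzymes of the mitochondrion. Members were all probe sets, the groups of short probes that read a transcript on the array, that the platform annotation assigns to 1 of these genes and to no other gene. There were 67 such probe sets among 54613 on the array, for 32 of the 35 genes. MARS1, QARS1 and TARS2, the enzymes for methionine, glutamine and mitochondrial threonine, were read by probe sets that name several genes, so no value is given for them. A filter on low values kept 57 of the 67 probe sets and at least 1 for each of the 32 genes. The 10 removed read at most 6.9 on any array. Enzymes outside the list were not analysed here.

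Human synthetases of both compartments are encoded in the nucleus, and most amino acids have separate genes for the cytosolic and the mitochondrial enzyme. GARS1 and KARS1, counted here as cytosolic, encode the enzyme of both compartments. Uncharged transfer RNA is sensed by the kinase GCN2, which raises translation of the transcription factor ATF4, and several cytosolic synthetase genes are known ATF4 targets.

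Expression was measured with 6 one-colour Affymetrix arrays of total RNA, 40 ng from each sample, taken from cultures at 70% confluence. MDA-MB-231 is an established human breast cancer line of mesenchymal, oestrogen receptor-negative character. The untransfected group held 3 samples of this line with no treatment. The wtCopFry group held 3 samples of 231wCFry, a puromycin-selected stable clone of that line carrying the wild-type Fry cDNA of the Copenhagen rat, picked because its Fry expression was similar to MCF10A, a mammary epithelial line. This group is 1 clone, no empty-vector clone is described, and the samples of each line are said to differ in passage number. The labels name no separate cultures, so p-values measure only the spread between these samples, which may be technical. Values are MAS5 signals, background-corrected brightness in arbitrary units, and 3 arrays per group limit the precision.

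The groups stood far apart over the whole array, and the wtCopFry samples went against their label in lineage markers. Of 13590 genes tested, 66.9% passed in either direction. All 6 epithelial and breast line markers were lower, with a summed signal of 7451.5 to 8076.9 on the untransfected arrays and 1534.8 to 1644.7 on the wtCopFry arrays. KRT18 made up most of the wtCopFry sum. It read 2992 ± 191 on the untransfected arrays and still 1507 ± 56.5 on the wtCopFry arrays (SD, n = 3). Of the 8 tested melanocyte and neural crest markers 7 were higher. Over the 9 on the array with a probe set of their own, the summed signal was 640.1 to 692 on the untransfected arrays and 5508.8 to 5958.7 on the wtCopFry arrays. SOX10 read 0.43 ± 0.32 and 1395 ± 22.3 (SD, n = 3), while PMEL stayed at or under 14.3 and TYRP1 at or under 10.4 on every array. Leukocyte markers summed to at most 29.3 on any array, and the endothelial and fibroblast lists summed to less on the wtCopFry arrays. The ratio of the 3' to the 5' control signal of GAPDH, a sign of RNA quality, was 1.36 to 1.39 in the untransfected samples and 1.24 to 1.33 in the wtCopFry samples. The same ratio of ACTB was 2.59 to 3 and 2.45 to 2.65, and there the groups overlapped. In every result below, introduced Fry, clonal selection and a different cell of origin cannot be told apart. The part of lineage and RNA quality in the results was not tested.

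Most cytosolic synthetases with a tested probe set were higher in the wtCopFry samples, and the mitochondrial enzymes moved in both directions. Of 17 cytosolic enzymes 10 rose, 1 fell and 6 did not pass, beside 33.9% of all genes higher and 32.9% lower. A gene was called where its limma p, after Benjamini-Hochberg correction, was under 0.05. Of 15 mitochondrial enzymes 6 rose, 4 fell and 5 did not pass. The 6 include WARS2, whose other tested probe set fell. Changes are differences in log2(signal + 16), wtCopFry minus untransfected. The median change was 0.45 over the cytosolic enzymes and 0.11 over the mitochondrial enzymes, beside 0.0084 over all genes tested. Relative to each gene's untransfected mean, the median cytosolic enzyme stood between -0.063 and 0.058 on the untransfected arrays and at 0.47, 0.39 and 0.45 on the wtCopFry arrays. The median mitochondrial enzyme stood between -0.026 and -0.0086 on the untransfected arrays and at -0.020, 0.12 and 0.25 on the wtCopFry arrays. The difference between the compartments was not tested.

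**Figure D1:**
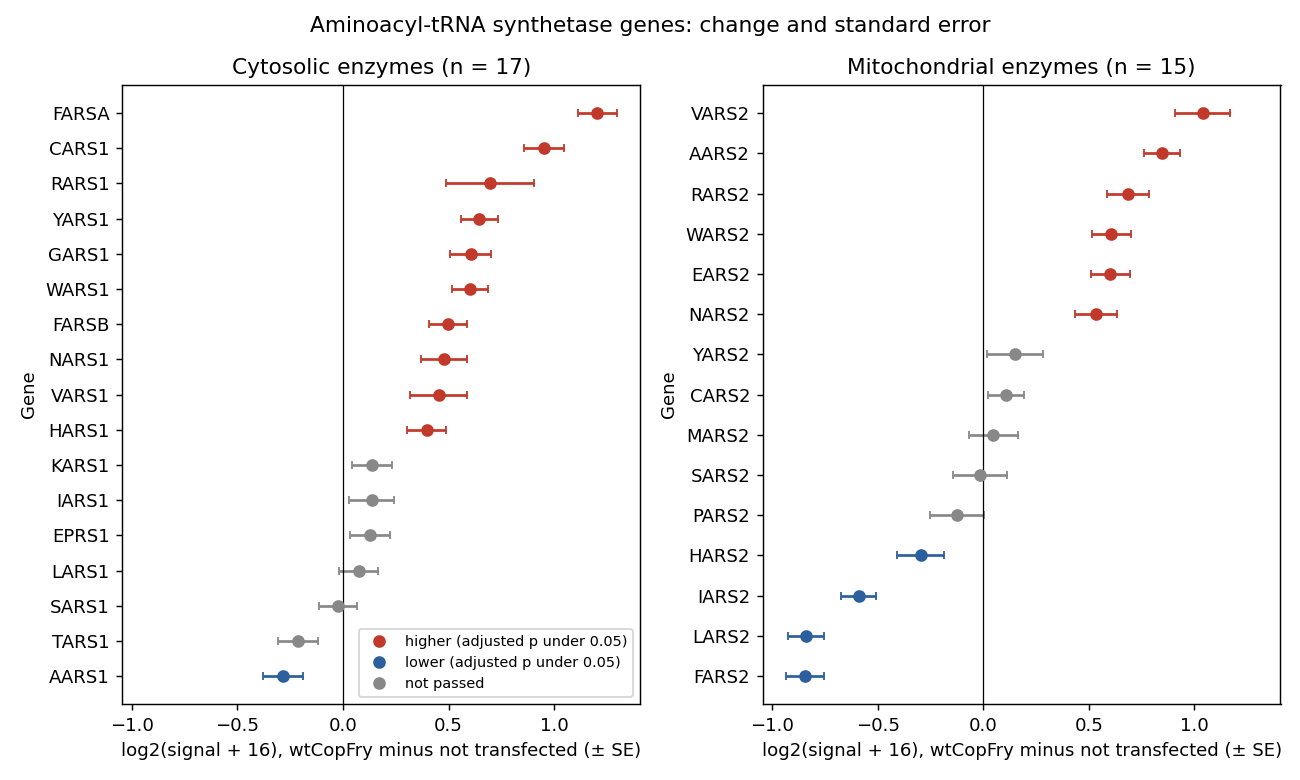
Change in log2(signal + 16), wtCopFry minus untransfected, for the 17 cytosolic (left) and 15 mitochondrial (right) synthetase genes, with bars for the limma standard error. FARSA (1.20) leads the rises on the left and AARS1 (-0.28) is the only fall there, while FARS2 and LARS2 (both -0.84) end the right panel.

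Changes were moderate in size. Of the 32 enzymes, 15 passed with a change of at least 0.5 in either direction, beside 47.8% of all genes, and 2 with at least 1, FARSA and VARS2, beside 23% of all genes. The groups did not overlap in 23 of the 32, beside 73% of all genes. Fewer cells with a transcript and less of it per cell cannot be told apart in these bulk samples.

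The largest rise was that of FARSA, the catalytic subunit of the cytosolic enzyme for phenylalanine. FARSA read 409.9, 364 and 395 on the untransfected arrays and 938, 952 and 864.5 on the wtCopFry arrays (log2 change 1.20, SE 0.09, limma adjusted p = 3.28e-06). FARSB, its partner subunit, read 701, 625 and 637 and then 928, 903 and 960.1 (0.50, SE 0.09, limma adjusted p = 0.00095). Both subunits of this enzyme were above every untransfected array on all 3 wtCopFry arrays, and whether their changes differ was not tested. A second, dim FARSB probe set of a type prone to cross-hybridise fell from 23.8 ± 5.06 to 11.2 ± 1.5 (SD, n = 3; limma adjusted p = 0.0024).

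CARS1, which charges cysteine, came next among the cytosolic enzymes. It read 720.6, 658.5 and 776 on the untransfected arrays and 1398.5, 1346 and 1460 on the wtCopFry arrays (0.95, SE 0.10, limma adjusted p = 2.10e-05). Its signal rose 1.95-fold as a ratio of means, and its 3 other tested probe sets rose too, by 0.91 to 1.30. RARS1, for arginine, read 261, 214 and 403 and then 411, 564 and 444 (0.70, SE 0.21, limma adjusted p = 0.015). The RARS1 groups were separated by little, since the highest untransfected array lay just under the lowest wtCopFry array. The RARS1 call ended with a pseudocount of 1 (adjusted p = 0.052) and without untransfected array 1 or 2 or wtCopFry array 2 (adjusted p = 0.052 to 0.061).

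YARS1, GARS1 and WARS1 rose by similar amounts. YARS1, for tyrosine, read 1241, 1196 and 1289 and then 1963, 1848 and 2046 (0.65, SE 0.09, limma adjusted p = 1.71e-04). GARS1, for glycine, read 2136, 2044 and 2255 and then 3354, 2975 and 3488.5 (0.60, SE 0.10, limma adjusted p = 4.76e-04). WARS1, for tryptophan, read 549, 556 and 542 and then 874.5, 806 and 841.5 (0.60, SE 0.085, limma adjusted p = 2.08e-04). In these 3 genes the groups did not overlap. WARS1 is also known as an interferon-induced gene, and its second probe set rose as well, by 0.72.

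Smaller rises came from NARS1 (0.48), VARS1 (0.45) and HARS1 (0.40), the enzymes for asparagine, valine and histidine, with limma adjusted p of 0.0038, 0.015 and 0.0040. VARS1 spread from 221 to 333 on the untransfected arrays and from 377 to 380.1 on the wtCopFry arrays. AARS1, for alanine, was the only cytosolic enzyme that fell. It read 605, 518 and 574 and then 485, 448 and 452 (-0.28, SE 0.09, limma adjusted p = 0.0265). This call ended without untransfected array 1 or 3 or wtCopFry array 2 or 3 (adjusted p = 0.059 to 0.088). TARS1, for threonine, read 2740.5, 2766 and 2926 and then 2330, 2290 and 2650 and did not pass (-0.22, limma adjusted p = 0.0745), although its groups did not overlap. A second TARS1 probe set fell at low signal, from 8.97 ± 2.05 to 4.57 ± 0.21 (SD, n = 3; -0.28, limma adjusted p = 0.028). The other enzymes that did not pass were KARS1 (0.14), IARS1 (0.14), EPRS1 (0.13), LARS1 (0.075) and SARS1 (-0.025).

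**Figure D2:**
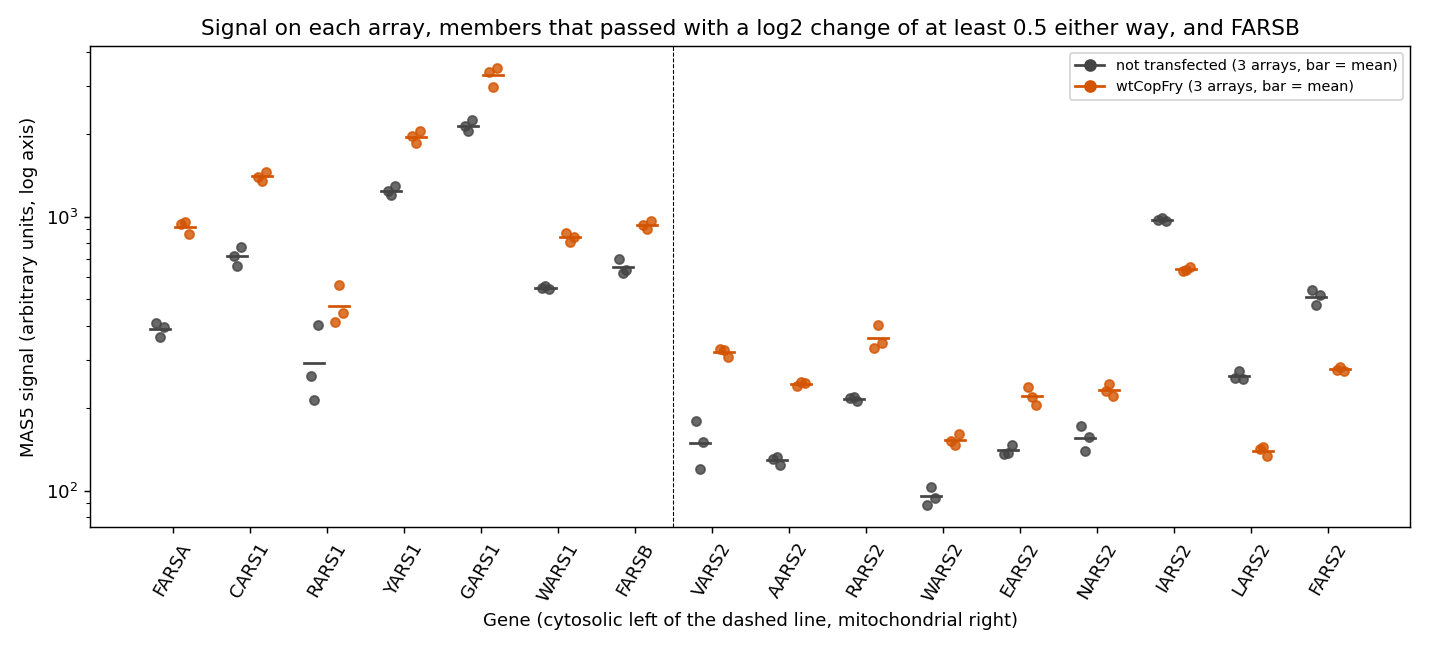
MAS5 signal on each array, on a log axis, for the 15 synthetase genes that passed with a log2 change of at least 0.5 either way and for FARSB. Points are arrays and bars are means of 3, and in each gene shown all wtCopFry points lie on one side of all untransfected points, with RARS1 the closest.

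Several cytosolic synthetases are held in a multi-synthetase complex with the scaffold proteins AIMP1, AIMP2 and EEF1E1. Of its 5 enzymes tested (EPRS1, IARS1, KARS1, LARS1 and RARS1) RARS1 rose and 4 did not pass, with a median of 0.14. Of the 12 cytosolic enzymes outside it 9 rose, 1 fell and 2 did not pass, with a median of 0.49. Over all genes tested 33.9% were higher and 32.9% lower. The difference was not tested. KARS1 had 1 other probe set that rose and LARS1 had 2, as given below, so both calls depend on the probe set. AIMP1 was the only scaffold with a tested probe set of its own, and the brightest one rose from 729 ± 50.7 to 1425 ± 111 (0.95, limma adjusted p = 2.74e-05). Its 2 other tested probe sets fell, so the direction of AIMP1 depends on the probe set.

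Synthetases fall into 2 classes with unrelated folds of the catalytic domain. Of 16 class I enzymes tested 9 rose, 2 fell and 5 did not pass, with a median of 0.53, beside 33.9% of all genes higher and 32.9% lower. Of 15 class II enzymes 7 rose, 3 fell and 5 did not pass, with a median of 0.14. EPRS1, which joins a glutamate enzyme of class I to a proline enzyme of class II in one chain, is in neither count. The difference between the classes was not tested.

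Among mitochondrial enzymes, VARS2, for valine, rose most. It read 179, 119.9 and 150.0 on the untransfected arrays and 329, 327 and 308 on the wtCopFry arrays (1.04, SE 0.13, limma adjusted p = 9.35e-05). AARS2, for alanine, read 131, 133 and 124 and then 241, 248 and 246 (0.85, SE 0.08, limma adjusted p = 1.97e-05). A second AARS2 probe set had a change of 0.24 that did not pass (limma adjusted p = 0.205). RARS2, for arginine, read 218, 219.5 and 213 and then 331, 402 and 345 (0.69, SE 0.10, limma adjusted p = 2.29e-04), and its second tested probe set rose by 0.56. The 4 further RARS2 probe sets were among the 10 removed as dim.

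EARS2, which charges glutamate onto both the glutamate and the glutamine transfer RNA of the mitochondrion, read 136, 137 and 147 and then 239, 219 and 205 (0.60, SE 0.09, limma adjusted p = 3.65e-04). Its other tested probe sets, dimmer ones, rose by 0.97 and 0.92. NARS2, for asparagine, read 172, 139 and 156 and then 231, 244 and 221 (0.53, SE 0.10, limma adjusted p = 0.0013). The groups did not overlap in either gene. WARS2 is counted among the rises by the probe set whose mean log2 signal was highest, and another of its probe sets fell, as described below.

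The falls were in the enzymes for phenylalanine, leucine, isoleucine and histidine. FARS2 read 540, 475 and 517 on the untransfected arrays and 276, 283 and 273 on the wtCopFry arrays (-0.84, SE 0.09, limma adjusted p = 3.02e-05). LARS2 read 259, 272 and 256 and then 142, 144 and 133 (-0.84, SE 0.09, limma adjusted p = 2.40e-05). Each of these had a second tested probe set that fell, by 0.94 for FARS2 and 0.99 for LARS2 on the log2 scale. IARS2 read 968.5, 988 and 967 and then 631, 640.3 and 654.5 (-0.59, SE 0.08, limma adjusted p = 1.91e-04). In these 3 genes every wtCopFry array lay below every untransfected array. HARS2 read 329.8, 294 and 278 and then 274, 220.5 and 232 (-0.30, SE 0.11, limma adjusted p = 0.041). The HARS2 call ended in 6 of 15 alternatives, with adjusted p of 0.058 without the filter on low values, 0.073 with a pseudocount of 1 and 0.073 to 0.14 in 4 of the 6 fits without 1 array. YARS2 (0.15), CARS2 (0.11), MARS2 (0.048), SARS2 (-0.016) and PARS2 (-0.12) did not pass.

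Where a gene had several tested probe sets they did not always move alike. Over member probe sets 30 rose, 10 fell and 17 did not pass, beside 30.2% of all probe sets higher and 32.2% lower. Of 18 members with several tested probe sets, 7 had all of them called in 1 direction, 8 had some called and the rest not passed, 1 had none called and 2 had calls in both directions. Among all 7232 genes with several tested probe sets, 6.73% had calls in both directions. The 2 members were FARSB and WARS2, the mitochondrial enzyme for tryptophan.

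WARS2 gave the largest change of any member probe set. One of its probe sets read 204.5, 213 and 219.5 on the untransfected arrays and 29.1, 29 and 23.6 on the wtCopFry arrays (-2.40, limma adjusted p = 3.03e-08). The other tested one, which stands for the gene in the counts, read 88.4, 103 and 93.9 and then 152, 147 and 161 (0.61, limma adjusted p = 3.45e-04). Neither pair of groups overlapped, so the 2 probe sets separate the groups in opposite directions. Which WARS2 transcripts each one reads was not determined.

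LARS1 was split as well. Its probe set with the highest mean, of a type prone to cross-hybridise, read 806, 875 and 926 and then 890.1, 900.4 and 955 and did not pass. Of its 3 other tested probe sets 1 did not pass (0.15, limma adjusted p = 0.38) and 2 rose, one from 723 ± 107 to 1035 ± 58.4 (SD, n = 3; 0.52, limma adjusted p = 0.0036) and one from 645 ± 25.3 to 866 ± 20.3 (0.42, limma adjusted p = 0.0021). SARS1, for serine, read 1129 ± 68.8 and 1109 ± 46.6 on the probe set that stands for the gene, and rose from 702 ± 62.4 to 912 ± 66.6 on the other (0.37, limma adjusted p = 0.011). A second KARS1 probe set rose by 0.29 (limma adjusted p = 0.015). CARS2 passed only on its dimmer probe sets, where it rose by 0.42 and 0.32. The second YARS1 and VARS1 probe sets, with mean signals of 9.67 to 25.7, did not pass.

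**Figure D3:**
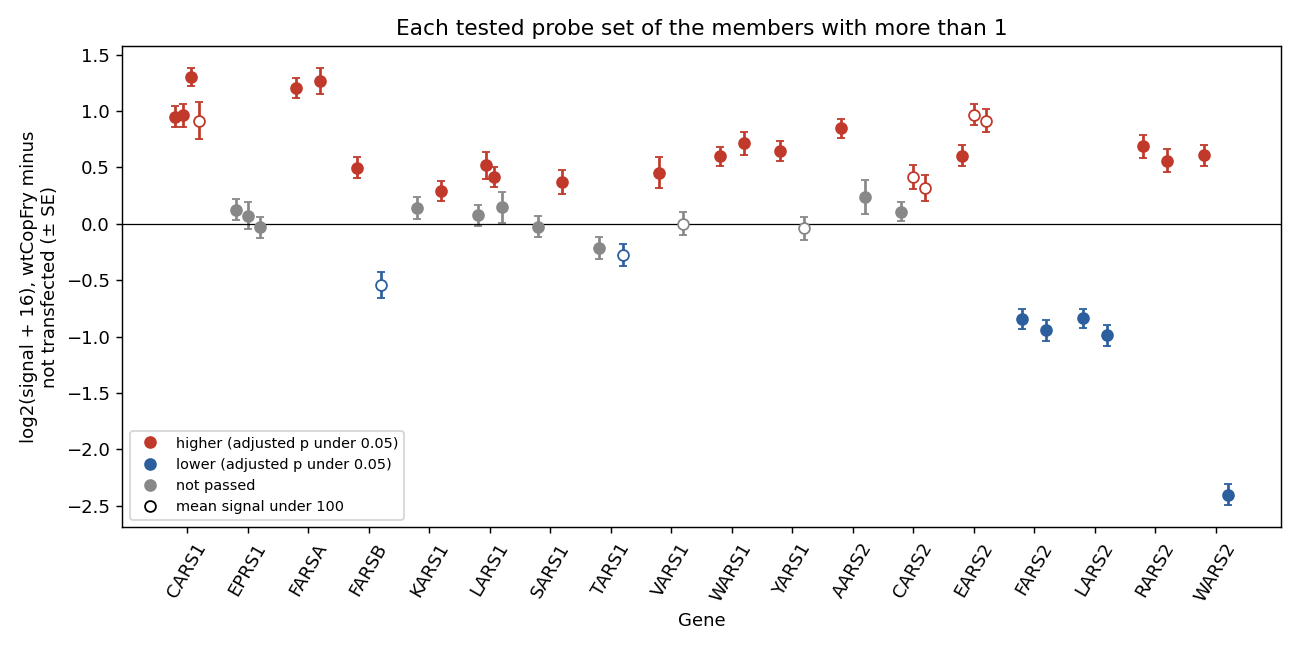
Change in log2(signal + 16), with limma standard errors, for every tested probe set of the 18 members that have more than 1. Open points have a mean signal under 100, and the WARS2 points lie at 0.61 and -2.40 while those of FARSA, CARS1, EARS2, FARS2, LARS2, RARS2 and WARS1 are all called in 1 direction.

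Cytosolic and mitochondrial enzymes of the same amino acid were set side by side in 15 pairs. Both enzymes rose in 4 pairs, both failed to pass in 2, and the calls were opposite in 4. Of all single genes 33.9% were higher and 32.9% lower. No share over pairs of other genes was computed, so whether these counts are unusual was not tested. Without untransfected array 1, wtCopFry array 2 or wtCopFry array 3 the opposite calls numbered 2, since the AARS1 and HARS2 calls were lost. Without probe sets of types shared between transcripts 9 pairs were left, with 2 that rose together and 4 with opposite calls, the tryptophan pair among the latter. The pairs that rose together were for asparagine, arginine, valine and tryptophan (the last by the WARS2 probe set that rose). Opposite calls came from FARSA and FARSB against FARS2 (1.20 and 0.50 against -0.84), HARS1 against HARS2 (0.40 against -0.30) and AARS1 against AARS2 (-0.28 against 0.85). LARS2 and IARS2 fell where LARS1 and IARS1 did not pass. FARSA and FARSB share FARS2 as partner, and EPRS1 stands in the pairs with EARS2 and with PARS2, so the pairs are not independent. The difference within a pair was not tested.

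**Figure D4:**
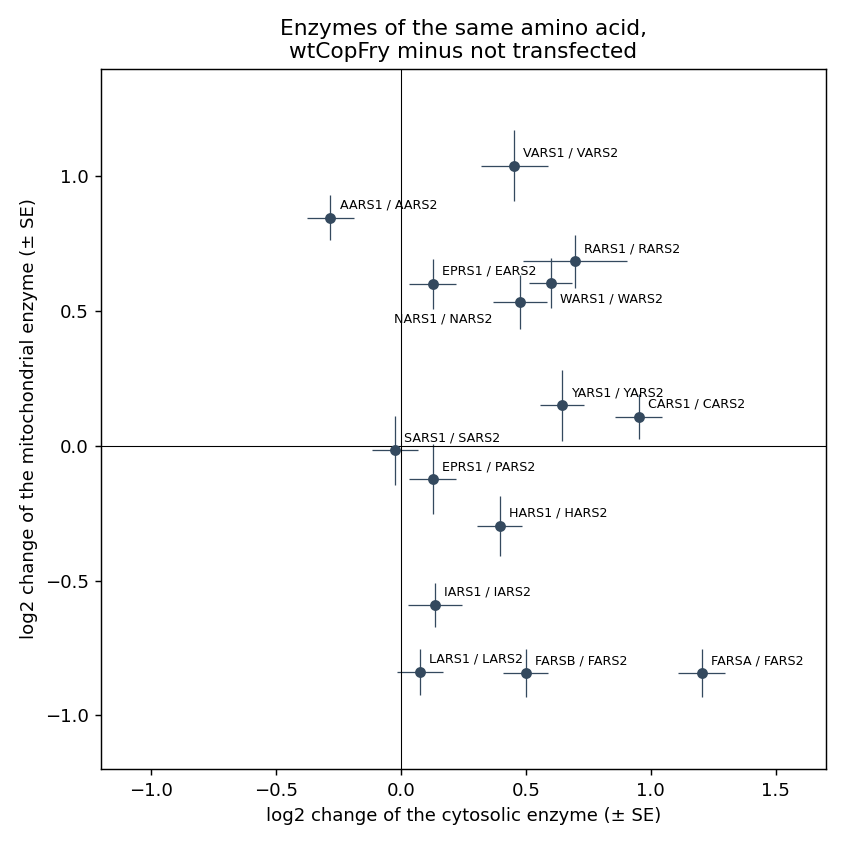
Log2 change of the cytosolic enzyme (horizontal) against that of the mitochondrial enzyme (vertical) for the same amino acid, with limma standard errors. NARS, RARS, VARS and WARS pairs lie at upper right, and the pairs with FARS2 at lower right.

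HARS1 and HARS2 lie next to each other and are read from opposite strands, so their promoters share sequence. In RefSeq (GRCh38.p14) 84 bases lie between the start sites, at chr5:140691371-140691454, and the windows of 250 bases before to 50 bases after each start overlap by 184 bases. The stretch between the starts is shown because it serves both genes. It is written on the HARS2 strand, and 59.5% of its bases are G or C.
HARS1-HARS2: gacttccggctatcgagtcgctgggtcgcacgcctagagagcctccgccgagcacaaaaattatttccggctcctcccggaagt
HARS1 read 829, 753 and 798 on the untransfected arrays and 1110.2, 1037 and 999 on the wtCopFry arrays, with no overlap, while every HARS2 array of the wtCopFry group lay below every untransfected one, the nearest being 274 against 278. Each gene had 1 probe set.

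Promoter windows of the same length were at hand for 30 of the 35 genes, from RefSeq (GRCh38.p14), and were searched for the core of the C/EBP-ATF response element, through which ATF4 acts. LARS1, VARS1, YARS1, AARS2 and VARS2 were not in the table. The letters TGATGNAA were searched on both strands (read as TTNCATCA on the other), and TGATGCAA, a form within it, was counted too. TGATGNAA was found in 7 of 16 cytosolic and 1 of 14 mitochondrial genes, and in 4.46% of 27305 genes (3.62% of 35116 windows). TGATGCAA was found in 6 of the 16 cytosolic genes, in 0 of the 14 mitochondrial genes and in 1.08% of all genes. The matches are shown on the gene's strand with 10 bases on each side and the matching letters in capitals, so that their likeness and their place can be compared.
AARS1: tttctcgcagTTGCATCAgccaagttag
CARS1: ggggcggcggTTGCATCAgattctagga
GARS1: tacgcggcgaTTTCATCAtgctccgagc
IARS1: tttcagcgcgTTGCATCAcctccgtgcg
MARS1: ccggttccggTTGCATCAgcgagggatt
NARS1: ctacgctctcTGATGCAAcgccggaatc
TARS1: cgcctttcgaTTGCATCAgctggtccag
YARS2: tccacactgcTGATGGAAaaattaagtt
They lie at chr16:70289676-70289703 (AARS1), chr11:3057408-3057435 (CARS1), chr7:30594835-30594862 (GARS1), chr9:92293693-92293720 (IARS1), chr12:57488054-57488081 (MARS1), chr18:57621805-57621832 (NARS1), chr5:33440957-33440984 (TARS1) and chr12:32756077-32756104 (YARS2). The match began 2, 4 and 13 bases before the start of CARS1, MARS1 and IARS1, and 2 and 14 bases after the first base of TARS1 and NARS1. It began 33 bases before a start of GARS1, 187 before that of AARS1 and 197 before that of YARS2.

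Genes with these letters did not all have the same call. Of the 6 cytosolic genes with a match and a value, CARS1, GARS1 and NARS1 rose, AARS1 fell, and IARS1 and TARS1 did not pass. The AARS1 fall was lost in 4 of 15 alternatives. Of the 8 cytosolic genes with a window, a value and no match, 5 rose and 3 did not pass, and FARSA, which rose most, was among them. A match is a likeness of letters only, and the absence of one says nothing of the factor. Among the 12 tested cytosolic enzymes held as ATF4 targets by general knowledge, 6 rose, 1 fell and 5 did not pass (median 0.29). Of the other 5 cytosolic enzymes 4 rose and 1 did not pass (median 0.50). Over all genes tested 33.9% were higher and 32.9% lower. Neither the difference by match nor that by ATF4 link was tested.

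On a list of ATF4 target enzymes and stress genes of the amino-acid response, most genes were higher in the wtCopFry samples. Of its 22 tested members 15 rose, 6 did not pass and 1 fell, with a median change of 1.48. Over all genes tested 33.9% were higher and 32.9% lower, with a median of 0.0084. STC2, a secreted hormone, rose from 9.03 ± 1.85 to 1590.2 ± 32.9 (SD, n = 3), and PHGDH, which opens serine synthesis, from 38 ± 4.25 to 1258 ± 59. NUPR1, a stress-induced chromatin protein, rose from 65.4 ± 8.17 to 1933 ± 75.9, and GDF15, a secreted stress cytokine, from 21.6 ± 8.17 to 415 ± 16.6. Of 10 genes that sense uncharged transfer RNA or act with ATF4, 5 rose, 1 fell and 4 did not pass. EIF2AK4, which encodes the sensor GCN2, fell from 679 ± 65.2 to 204 ± 2.92 (-1.66, limma adjusted p = 5.56e-07), and its 1 other tested probe set did not pass. ATF3 rose from 49.8 ± 7.91 to 274 ± 28.5, DDIT3 from 98.7 ± 5.54 to 186 ± 4.3 and CEBPB from 980.3 ± 64.5 to 1776 ± 72.7, all transcription factors of this response. ATF4 itself rose from 2850 ± 93.1 to 3952 ± 544 (0.46, limma adjusted p = 0.0055). IMPACT, which restrains GCN2 activation, rose by 0.72. SLC7A5, an amino-acid transporter, was the 1 fall among the targets (-0.69). ATF4, IMPACT and SLC7A5 are named after their values were seen, and these lists were chosen with earlier results of the same arrays known.

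Factors that use charged transfer RNA were mixed. Over all genes tested 33.9% were higher and 32.9% lower, and no list here was tested against these shares. Of 7 tested genes for mitochondrial charging and elongation 5 rose, 1 fell and 1 did not pass. GFM1 and TUFM, elongation factors of the mitochondrial ribosome, rose by 1.04 and 0.90. MTFMT, which formylates the initiator methionine, rose by 0.59. GATC, a subunit of the amidotransferase that finishes the glutamine transfer RNA charged by EARS2, fell from 413 ± 17.9 to 213 ± 12.1 (SD, n = 3; -0.90, limma adjusted p = 1.95e-05). Of 75 tested genes of the mitochondrial ribosome 30 rose, 17 fell and 28 did not pass (median 0.11), led by MRPS21 (1.62), MRPL14 (-0.95), MRPS14 (-0.89) and MRPS30 (0.95). Of 6 cytosolic elongation factor genes 3 rose and 3 did not pass. Among those that did not pass, EEF1D and EEF1A1 had other tested probe sets that rose (2 of 3 and 1 of 5). EEF1A2, a tissue-restricted form of the factor that delivers charged transfer RNA, rose from 13.4 ± 1.5 to 246 ± 14.4. EIF5A rose by 1.28 and EEF2 by 0.33, and EIF5A2 did not pass (0.22). XPOT, the nuclear exporter of transfer RNA, rose by 0.34 and DTD1, a proofreading enzyme that removes D-amino acids, by 0.27, while DTD2, a related one, fell by 0.60 on the log2 scale. The 1 other tested probe set of XPOT and that of DTD2 did not pass, while that of DTD1 rose.

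**Figure D5:**
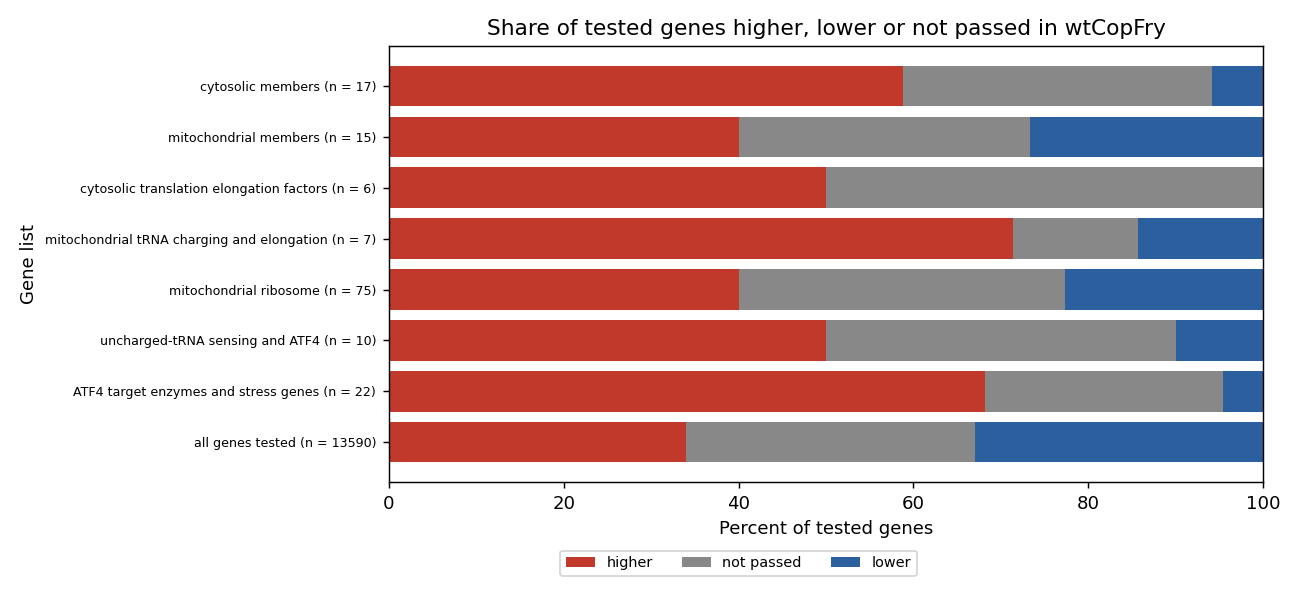
Percent of tested genes that were higher, not passed or lower in the wtCopFry samples, by gene list, with the number tested in each label. Of the cytosolic synthetases 10 of 17 were higher and 1 lower, of the mitochondrial ones 6 of 15 and 4, and the bottom bar gives all 13590 genes, with 33.9% higher and 32.9% lower.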

How the data were processed

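The authors deposited linear MAS5 signal intensity values for 6 arrays, as the submitters' processing notes state, with a version not given in the sources used here. Trimmed by 2% at each end, every array had the same mean. Gene names came from GEO's platform annotation, matched by Entrez identifier to RefSeq. After removal of 62 controls, 54613 probe sets were left, 41037 with a single gene and 13576 with several or none.

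Signals were taken as log2(signal + 16), which understates changes of dim genes, and probe sets with a mean at or above the 40th percentile (signal 5.62) were tested with lmFit and eBayes of limma 3.58.1 (R 4.3.3), without covariates, adjusted by Benjamini-Hochberg over 32768 probe sets at 0.05. A gene was read by the tested probe set whose mean log2 signal was highest. All members are named, with values per array for those that passed at 0.5 or more and for FARSA and FARSB. Array values of AARS1, HARS1, HARS2, LARS1 and TARS1 were added after their values were seen. In other lists up to 4 genes with the smallest p are named. KRT18, PMEL, TYRP1, ATF4, IMPACT, SLC7A5, EEF1D and EEF1A1 are named outside that rule. Members and lists were chosen with earlier results of these data known. On simulated data for this comparison, with 200 of 32768 probe sets changed, the fit recovered 82% of log2 changes of 1 and 99% of changes of 2. In the data themselves 62.4% of probe sets were called, which makes the adjusted threshold more lenient. The simulated percentages therefore do not carry over to these arrays. Alternatives covered the pseudocount, filter, scaling, variance trend, replicate number, choice of probe set and each array left out. Plots used matplotlib 3.10.9 (Python 3.11.15).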

Additional observations from a re-analysis of the deposited data

How the results depend on the processing

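Of 32 members, 26 kept their call in every alternative that gave them a value. Of these, 16 were called and kept their direction, and 10 did not pass, with 3 of the 10 (MARS2, SARS1 and SARS2) changing sign in at least 1 alternative. Over all members and alternatives, 455 values kept the call (6 of them with the sign changed), 14 lost it with the sign kept and 3 gained it. In 2 further values a called member changed sign. These 2 came when probe sets of types shared between transcripts (names ending in _s_at or _x_at) were left out. WARS2 then read -2.40 and was called lower. YARS1, left with its dim probe set, read -0.041 and did not pass. Under that choice 6 cytosolic enzymes rose and the cytosolic median was 0.40. The rises of FARSB, GARS1 and VARS1 were lost because 6 of the 17, these included, had tested probe sets of these types only. The YARS1 rise was lost because its dim probe set did not pass. Under the same choice 5 mitochondrial enzymes rose and 5 fell, with a median of 0.048. With a pseudocount of 64 the number of cytosolic enzymes that fell was 2 and the median 0.39, and with a variance trend that number was also 2, TARS1 joining AARS1. If all tested probe sets of a gene had to agree, 7 cytosolic enzymes rose and 1 fell, and 4 mitochondrial enzymes rose and 4 fell. Leaving out 1 array at a time gave 9 to 10 rises and 0 to 1 falls among cytosolic enzymes, 6 rises and 3 to 4 falls among mitochondrial ones, 28 to 29 rises and 7 to 9 falls among probe sets, and medians of 0.40 to 0.45 and 0.06 to 0.13. With 2 arrays left in a group the spread is taken from both groups. The AARS1 fall was lost without untransfected array 1 or 3 or wtCopFry array 2 or 3, and without the last of these TARS1 was called instead. Samples with the same replicate number correlated in their deviations at 0.07, 0.075 and 0.188, so the numbers were not taken to pair them. A fit with the replicate number as a block gave the same counts, with 10 rises and 1 fall among cytosolic and 6 rises and 4 falls among mitochondrial enzymes. Signal limits 10 member probe sets, which were too dim to be tested.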
